A study of Mus musculus with 36 samples.

Results

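Transcript levels in mouse embryonic stem cells (ESC) with catalytically inactive MLL3 and MLL4 (dCD) were set directly against those in ESC whose MLL2 carries a dTAG degron (MLL2dTAG), 3 libraries of each. Genes were taken by a filter on low counts in these 6 libraries, which 17536 of the 51734 gene symbols in the count table passed. The study measured mRNA of E14 ESC and of neural precursor cells (NPC) made from them, in 36 samples in all. It was designed around the part that MLL3 and MLL4 activity plays in enhancer chromatin during differentiation, and the comparison described here asks where loss of that activity and the MLL2 degron give different transcript levels.

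The dCD cells were labelled MLL3/4 dCD and the degron cells MLL2 dTAG, and every library of both groups was labelled as treated with dTAG-13, the compound that directs a dTAG-bearing protein to degradation. The wild-type (WT) ESC libraries, 3 in number, carried the same dTAG-13 label, so no comparison among these groups isolates the compound. The labels' protocol gives 2 µM dTAG-13 from day 1 of NPC differentiation with harvest on day 4 and retinoic acid for NPC, and neither the dose nor the duration in ESC was stated. Cells were kept in medium with serum replacement and LIF. Because each genotype was a separate line, what the edit did and what the line brought with it cannot be told apart. Whether replicates were separate cultures was not stated, and the p-values measure the spread between these samples, which may be technical.

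MLL2, MLL3 and MLL4 are encoded by Kmt2b, Kmt2c and Kmt2d and place methyl groups on lysine 4 of histone H3. MLL3 and MLL4 act mainly at enhancers, where they are the main source of the monomethyl mark. MLL2 binds unmethylated CpG dinucleotides through its CXXC domain and acts mainly at promoters, including those of poorly expressed developmental and germline genes in ESC.

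Total counts were 23.8 to 27.4 M (mega counts) in the dCD libraries, 27.9 to 38.7 M in MLL2dTAG and 19.4 to 30.6 M in WT ESC. Across genes, Pearson correlation of log2 CPM (counts relative to the scaled library total, in the usual unit) was 0.996 to 0.998 between replicates and 0.966 to 0.967 between the 2 groups. The biological coefficient of variation was 2.91%, so differences far below 2-fold passed the test. Markers of ESC identity were present in both groups. Pou5f1, which encodes the pluripotency factor OCT4, was at 619, 597 and 652 CPM in dCD and 636, 622 and 598 CPM in MLL2dTAG, overlapping values with a log2 difference of 0.03 (SE 0.03) that was called only with upper quartile scaling. In RNA of whole cultures, fewer cells of a type and less RNA per cell cannot be told apart.

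The dCD and MLL2dTAG cells differed in 9855 genes (56.2%) by the edgeR quasi-likelihood test at a Benjamini-Hochberg adjusted p under 0.05. Of the genes tested, 4985 (28.4%) were higher and 4870 (27.8%) were lower in dCD. The median size of the difference among these genes was 0.39 on the log2 scale, and the median over all genes tested was 0.01. Differences shown to exceed 2-fold, by edgeR's glmTreat test, were unevenly split. In that test 849 genes (4.84%) were higher in dCD and 233 (1.33%) were lower. At least an 8-fold difference was fitted for 284 of the former and 27 of the latter. In all 1082 of these genes the 3 dCD libraries did not overlap the 3 MLL2dTAG libraries. That adds no support, since the genes were selected on the same difference in the same libraries. No count was seen in any MLL2dTAG library for 88 of the higher genes, and no count in any dCD library for 5 of the lower genes.

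**Figure D1:**
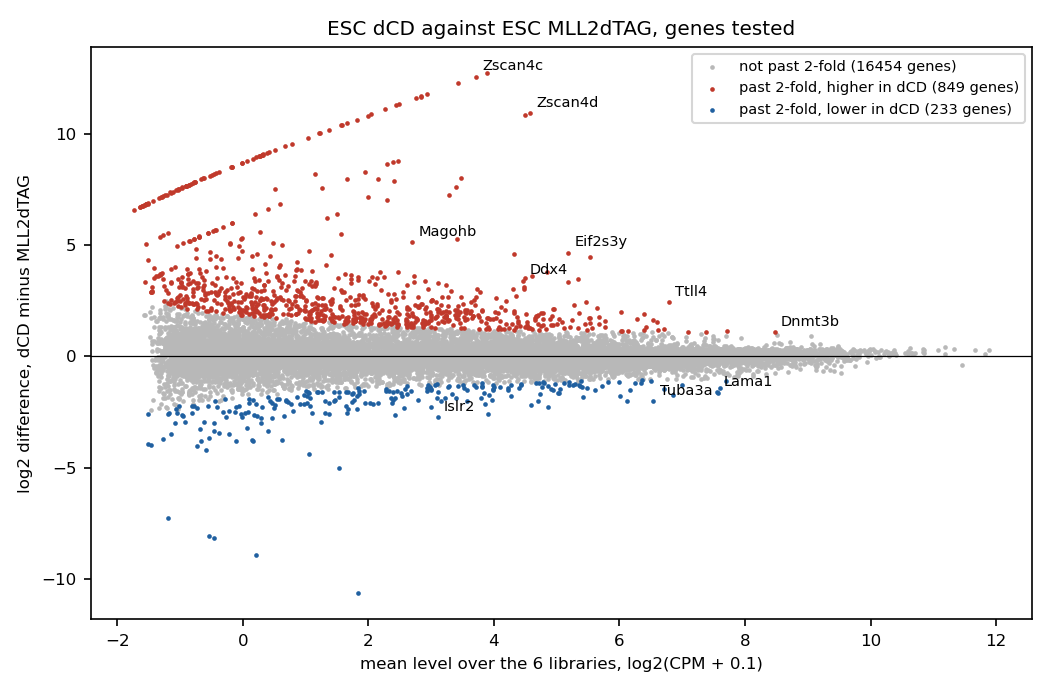
Log2 difference between ESC dCD and ESC MLL2dTAG for each gene tested (vertical axis) against its mean level over the 6 libraries (horizontal axis, log2 of CPM + 0.1), with red and blue points for the 849 higher and 233 lower genes past 2-fold. The straight upper line of points is made of genes with no count in MLL2dTAG, whose fitted difference depends on the prior count.

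Genes of the 2-cell state, which are active in the early cleavage embryo and in rare ESC that resemble it, were at or near 0 counts in MLL2dTAG. Of the 23 listed, 21 passed the filter on low counts, and 13 of these had no count in MLL2dTAG. The others were near 0 there too, so all 21 could pass only through dCD, which fixed their direction. That all 21 were past 2-fold higher in dCD (4.84% of all genes were) is therefore given as a description. Their median log2 difference was 9.07 as fitted, and 7.66 with the 13 members at 0 counts in MLL2dTAG set to a bound of 3 counts over the group. The summed level of the list was 248.6 to 250.2 CPM in dCD, 0.261 to 0.330 CPM in MLL2dTAG and 43.7 to 48.6 CPM in WT. WT thus lay between the edited lines, and all 21 members were called higher in dCD than in WT and lower in MLL2dTAG than in WT.

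The Zscan4 genes, zinc finger genes with a SCAN domain that mark this state, lie in a cluster of near-identical copies on chromosome 7. The promoters of 3 genes of the cluster are shown because these genes differed together, and the promoters of Magohb and Ddx4 are shown beside them because these genes also differed strongly and have far more CpG. Each is the stretch of 250 bases before the RefSeq start of the gene (build GRCm38.p6, 5′ to 3′ on the gene's strand), with every CG in capitals.
Zscan4c, chr7:11005495-11005744, plus strand: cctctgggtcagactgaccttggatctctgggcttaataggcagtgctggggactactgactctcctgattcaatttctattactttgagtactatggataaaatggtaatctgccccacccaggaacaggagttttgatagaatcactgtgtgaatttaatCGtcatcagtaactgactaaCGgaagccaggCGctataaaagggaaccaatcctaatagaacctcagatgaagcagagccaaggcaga
Zscan4d, chr7:11166149-11166398, minus strand: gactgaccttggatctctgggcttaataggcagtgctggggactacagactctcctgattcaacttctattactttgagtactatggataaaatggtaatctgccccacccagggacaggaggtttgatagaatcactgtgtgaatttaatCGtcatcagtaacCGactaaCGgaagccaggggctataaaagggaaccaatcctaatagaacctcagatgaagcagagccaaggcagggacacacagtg
Zscan4f, chr7:11397665-11397914, plus strand: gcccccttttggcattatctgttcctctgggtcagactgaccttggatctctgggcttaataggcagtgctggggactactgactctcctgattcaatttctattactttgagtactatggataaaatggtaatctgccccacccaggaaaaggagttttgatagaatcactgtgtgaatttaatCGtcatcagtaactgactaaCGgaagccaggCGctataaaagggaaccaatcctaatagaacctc
Magohb, chr6:131293245-131293494, minus strand: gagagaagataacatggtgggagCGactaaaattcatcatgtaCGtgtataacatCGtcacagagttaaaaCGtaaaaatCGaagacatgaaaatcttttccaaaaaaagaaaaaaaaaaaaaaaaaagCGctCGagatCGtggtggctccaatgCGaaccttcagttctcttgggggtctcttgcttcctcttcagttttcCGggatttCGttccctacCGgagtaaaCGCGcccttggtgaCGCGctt
Ddx4, chr13:112652311-112652560, minus strand: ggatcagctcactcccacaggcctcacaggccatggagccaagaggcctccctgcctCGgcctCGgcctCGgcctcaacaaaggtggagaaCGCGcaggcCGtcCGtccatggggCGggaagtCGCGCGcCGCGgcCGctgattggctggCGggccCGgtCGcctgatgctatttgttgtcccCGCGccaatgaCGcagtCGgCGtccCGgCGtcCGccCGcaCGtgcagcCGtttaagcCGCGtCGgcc

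Aligned without gaps, the windows of Zscan4c and Zscan4f were identical at 226 of 227 shared bases, and those of Zscan4c and Zscan4d at 232 of 239. Each of the 3 Zscan4 windows held 3 CG, that of Magohb 16 and that of Ddx4 31. Of 27018 RefSeq promoter windows of this length, 91.7% held at least 1 CG, 38.1% held at most 3 and 25.6% held at least 16. The counts of letters describe these windows only. Among genes tested, 66.9% had a window by symbol, too few for a comparison of CpG content between gene groups, which is therefore not reported.

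Zscan4c was at 25.8, 27.6 and 25.2 CPM in the dCD libraries, at 0 counts in every MLL2dTAG library and at 5.00 to 5.47 CPM in WT. Its level was at least 854-fold higher in dCD than in MLL2dTAG, taking 3 counts over the group as the floor. Zscan4d had 3530 counts in dCD against 2 in MLL2dTAG, a ratio of 2320 with a 95% counting interval of 642 to 19200. Zscan4a gave a ratio of 2200 (607 to 18100), from 44.0 to 46.5 CPM in dCD. Both counts of Zscan4d in MLL2dTAG came from replicate 3 and both of Zscan4a from replicate 1. Without that library the fitted log2 difference moved from 10.91 to 13.3 for Zscan4d and from 10.84 to 13.4 for Zscan4a, values that then depend on the prior count. Reads cannot be assigned with certainty among such copies, so these values describe the cluster better than its single genes. The same holds for Zscan4-ps3 (at least 953-fold), Zscan4e (at least 691-fold), Zscan4-ps1 (at least 490-fold) and Zscan4f (at least 463-fold). Intervals and floors cover counting error only, since reads are not independent molecules.

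Other transcripts of this state were also at or near 0 counts in MLL2dTAG. Tmem92, which encodes a membrane protein, was at 14.0, 12.1 and 13.8 CPM in dCD, 0 counts in MLL2dTAG and 2.45 to 3.03 CPM in WT, at least a 434-fold difference between the edited lines. Duxf3, from the Dux family of homeobox genes that activate the state, had 72 counts in dCD and none in MLL2dTAG (at least 31.5-fold). Zfp352 had 241 counts against 0 (at least 106-fold), Sp110 had 313 against 1, and Usp17la, of a multi-copy deubiquitinase family, had 719 against 2 (ratio 473, interval 130 to 3910). Among the 12 highest log2 differences of genes averaging at least 5 CPM, 7 were Zscan4 genes or pseudogenes. The others were Tmem92 and 4 genes with predicted names, Gm12794 (at least 458-fold), Gm16478 (at least 363-fold), Gm5662 (at least 351-fold) and Gm8300 (807 counts against 2).

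Y-linked genes were also far lower in MLL2dTAG. Of 7 listed, 6 passed the filter, 2 of them only through dCD, and all 6 were past 2-fold higher in dCD, with a summed level of 202.0 to 206.7 CPM in dCD, 8.90 to 10.5 CPM in MLL2dTAG and 194.1 to 201.9 CPM in WT. Eif2s3y, which encodes a subunit of a translation initiation factor, was at 70.5, 68.6 and 69.6 CPM in dCD and 3.44, 2.85 and 2.24 CPM in MLL2dTAG (log2 difference 4.66, SE 0.08). Ddx3y, an RNA helicase gene, was at 87.1 to 88.6 CPM against 3.84 to 4.41 CPM. The MLL2dTAG values were low but not 0 in 4 of the 6 genes, and Zfy1 and Usp9y had no count there. This difference in Y-linked RNA separates the same 2 groups as every result here, and its part in the other results was not tested.

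**Figure D2:**
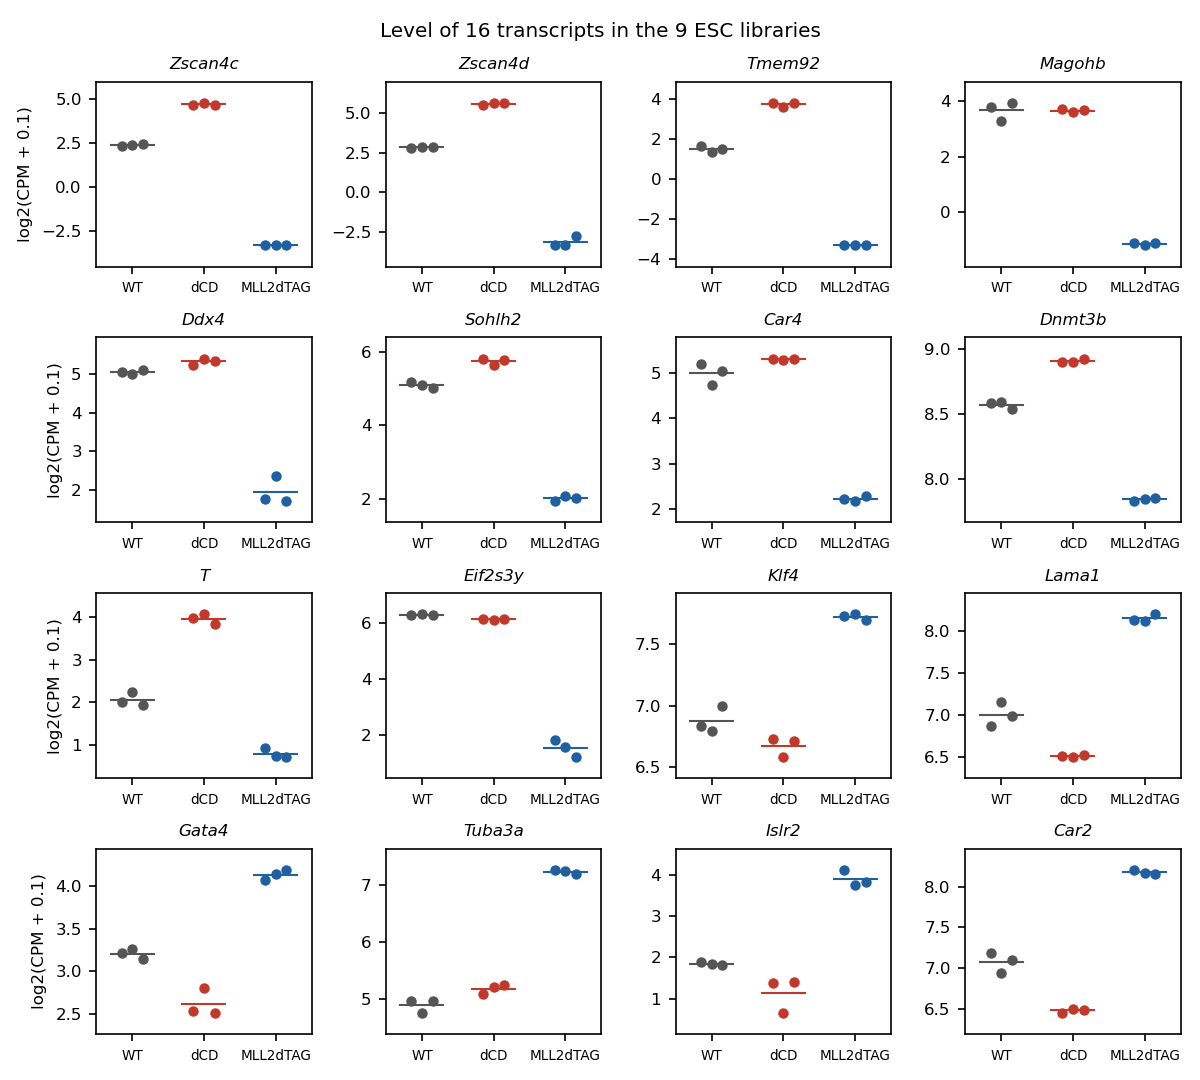
Level of 16 transcripts in the 9 ESC libraries (vertical axes, log2 of CPM + 0.1, scaled per panel), with 1 point per library and a bar at the mean of 3. Zscan4c had 0 counts in MLL2dTAG, and each transcript shown separates dCD from MLL2dTAG without overlap.

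Genes of germ cells and meiosis differed in both directions, more often upward in dCD. Of 32 listed and tested, 20 were higher and 6 lower in dCD, against 28.4% and 27.8% of all genes, and 14 were past 2-fold higher and 1 lower. Asz1, among these 14, had no count in MLL2dTAG and so could pass the filter only through dCD, which fixed its direction. The median log2 difference of the list was 0.94. The summed level of the list went the other way, at 663.1 to 705.3 CPM in dCD and 753.5 to 765.6 CPM in MLL2dTAG. In WT it was 728.4 to 739.9 CPM. Ddx4, the RNA helicase of germ cells also known as Vasa, was at 37.8, 42.3 and 40.6 CPM in dCD, 3.30, 5.09 and 3.18 CPM in MLL2dTAG and 32.1 to 34.4 CPM in WT (log2 difference between the edited lines 3.40, SE 0.10). Sohlh2, a transcription factor of early germ cells, was at 49.6 to 56.1 CPM in dCD, 3.73 to 4.16 CPM in MLL2dTAG and 32.3 to 36.1 CPM in WT (3.77, SE 0.08). In both genes WT lay below dCD and far nearer to it than to MLL2dTAG.

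Among the other germline genes past 2-fold were genes of the synaptonemal complex, the axis that pairs chromosomes in meiosis. Sycp2 was 3.49 (SE 0.24) and Sycp3 1.97 (SE 0.11) higher on the log2 scale in dCD. Genes that protect the germline through small RNAs also differed, with Tdrd1 at 2.90 (SE 0.22), Mael at 1.97 (SE 0.11) and Mov10l1 at 1.42 (SE 0.07). The RNA-binding gene Dazl was higher by 2.08 (SE 0.10), and the meiotic recombination gene Tex11 by 2.66 (SE 0.13). Asz1 had 52 counts in dCD and 0 in MLL2dTAG, at least a 22.8-fold difference.

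The germline members lower in dCD were fewer. Stag3, a cohesin subunit of meiosis, was at 110 to 118 CPM in dCD and 212 to 228 CPM in MLL2dTAG (−0.96, SE 0.03), and Hormad1, Hormad2 and Tdrd12 were lower by smaller amounts. Tuba3a, an alpha-tubulin gene of testis, was at 34.0, 36.9 and 37.8 CPM in dCD, 153, 151 and 146 CPM in MLL2dTAG and 27.0 to 31.1 CPM in WT (−2.03, SE 0.04). Its near-identical copy Tuba3b was higher in dCD (1.97, SE 0.39) at 0.768 to 1.74 CPM, so the assignment of reads between the copies is uncertain. Sycp1 and Smc1b did not pass the test, at −0.12 (SE 0.09) and 0.06 (SE 0.07).

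Pluripotency genes separated by state. ESC pass from a naive state, that of the early epiblast, through a formative state toward the primed one. Of 22 genes of general and naive pluripotency, 16 were lower in dCD, against 27.8% of all genes, and the other 6 were not called. Their median log2 difference was −0.40, with summed levels of 4894 to 5042 CPM in dCD against 5994 to 6195 CPM in MLL2dTAG. Klf4, a reprogramming factor of the naive network, was at 106, 95.8 and 105 CPM in dCD, 212, 214 and 208 CPM in MLL2dTAG and 111 to 128 CPM in WT (−1.03, SE 0.03). Prdm14 (−0.82, SE 0.06), Tcl1 (−0.77, SE 0.04), Nr5a2 (−0.71, SE 0.04) and Tfcp2l1 (−0.68, SE 0.02) were lower in dCD, and Nanog by a small amount (−0.12, SE 0.02). Against WT, 15 of the 22 were higher and 4 lower in MLL2dTAG, where 60.9% of all genes were called in either direction. In dCD 7 were higher and 9 lower than WT, where 51.2% of all genes were called, and these comparisons share the WT libraries.

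Genes of the formative and primed states differed in the opposite direction. Of 18 genes, 14 were higher and 2 lower in dCD, against 28.4% and 27.8% of all genes, and 5 of the higher were past 2-fold, against 4.84%. The median was 0.90. Car4, a carbonic anhydrase gene used as a marker of this state, was at 39.9, 39.2 and 39.6 CPM in dCD, 4.58, 4.41 and 4.78 CPM in MLL2dTAG and 26.7 to 36.7 CPM in WT (3.12, SE 0.08). Fgf5, the growth factor that marks the formative epiblast, was at 8.40 to 8.79 CPM against 1.41 to 1.61 CPM (2.52, SE 0.15). Sall2 (1.68, SE 0.06) and Sox3 (1.58, SE 0.20) were also past 2-fold, while Otx2 (0.75, SE 0.05) and Pou3f1 (1.04, SE 0.09) were higher but not shown to exceed 2-fold. Etv4, a target of FGF signalling, was lower in dCD (−0.93, SE 0.03), as was Foxd3 (−0.44, SE 0.09).

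Dnmt3b, the de novo DNA methyltransferase that rises in the formative state, had the largest gap in mean CPM of the 849 higher genes. It was at 478, 478 and 487 CPM in dCD, 227, 229 and 231 CPM in MLL2dTAG and 371 to 386 CPM in WT (1.08, SE 0.02, Benjamini-Hochberg adjusted p 3.0e-28 in edgeR's quasi-likelihood test). The 3 groups did not overlap. Other methyltransferase genes were higher in dCD, Dnmt1 of maintenance methylation (0.95, SE 0.02) and Dnmt3a (0.90, SE 0.03). Dnmt3l, a cofactor without catalytic activity, was lower (−0.79, SE 0.03), as was the dioxygenase gene Tet2 (−0.71, SE 0.03). Uhrf1, which guides maintenance methylation, did not pass the test (−0.01, SE 0.02).

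Markers of lineages outside the epiblast also separated the groups. Of 15 tested primitive endoderm markers of 17 listed, 14 were lower in dCD, against 27.8% of all genes, and 1 was not called. Of the lower, 5 were past 2-fold where 1.33% of all genes were, and the median of the list was −0.87. Gata4, a transcription factor of that lineage, was at 5.72, 6.87 and 5.63 CPM in dCD, 16.7, 17.5 and 18.1 CPM in MLL2dTAG and 8.73 to 9.48 CPM in WT (−1.51, SE 0.10). Lama1, a laminin chain of its basement membrane, was at 91.4, 90.8 and 91.9 CPM against 282, 279 and 295 CPM, with 117 to 143 CPM in WT (−1.63, SE 0.03). Gata6 (−1.65, SE 0.14), Cubn (−1.44, SE 0.05) and Hnf4a (−1.97, SE 0.15) completed the 5. Foxa2 was not called at 0.18 (SE 0.36), and the visceral endoderm genes Afp and Ttr were near 0 in both groups.

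Fibroblasts are cells that ESC cultures can hold. Their markers were lower in dCD in 5 of 12 cases and higher in 1, against 27.8% and 28.4% of all genes. None of the markers passed 2-fold. Their summed level was 1088 to 1211 CPM in dCD, 1263 to 1348 CPM in MLL2dTAG and 716.1 to 884.7 CPM in WT, with 0 of the 12 genes at 0 counts in these ESC groups. Their part in the endoderm result was not tested.

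Of 9 tested primitive streak and mesoderm markers of 13 listed, 6 were higher in dCD and 3 were not called, with 4 of the higher past 2-fold, where 28.4% of all genes were higher and 4.84% past 2-fold. T, the mesoderm factor brachyury, was at 15.7, 16.6 and 14.2 CPM in dCD, 1.79, 1.55 and 1.54 CPM in MLL2dTAG and 3.70 to 4.64 CPM in WT (3.27, SE 0.13). Wnt3, the ligand that induces the streak, was at 5.29 to 6.37 CPM against 0.732 to 1.49 CPM (2.53, SE 0.21), and Fgf8 and Mixl1 differed by 2.65 (SE 0.26) and 2.35 (SE 0.35). Msgn1 had no count in either group. Among 9 tested trophoblast markers of 11 listed, 4 were higher and 2 lower, the latter near the share of all genes. The keratins Krt18 (2.68, SE 0.08), Krt7 (2.45, SE 0.22) and Krt8 (1.43, SE 0.08) were past 2-fold higher and the transcription factor gene Tfap2a past 2-fold lower (−1.60, SE 0.18). Cdx2, which defines the lineage, was not called, at 0.952 to 1.49 CPM over both groups. Of 10 tested neural markers of 16 listed, 6 were higher and 3 lower, the latter near the 27.8% of all genes that were lower. Past 2-fold higher were 3, against 4.84% of all genes. Neurod1 was at 1.39 (SE 0.11) and Pax6 at −1.06 (SE 0.14).

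**Figure D3:**
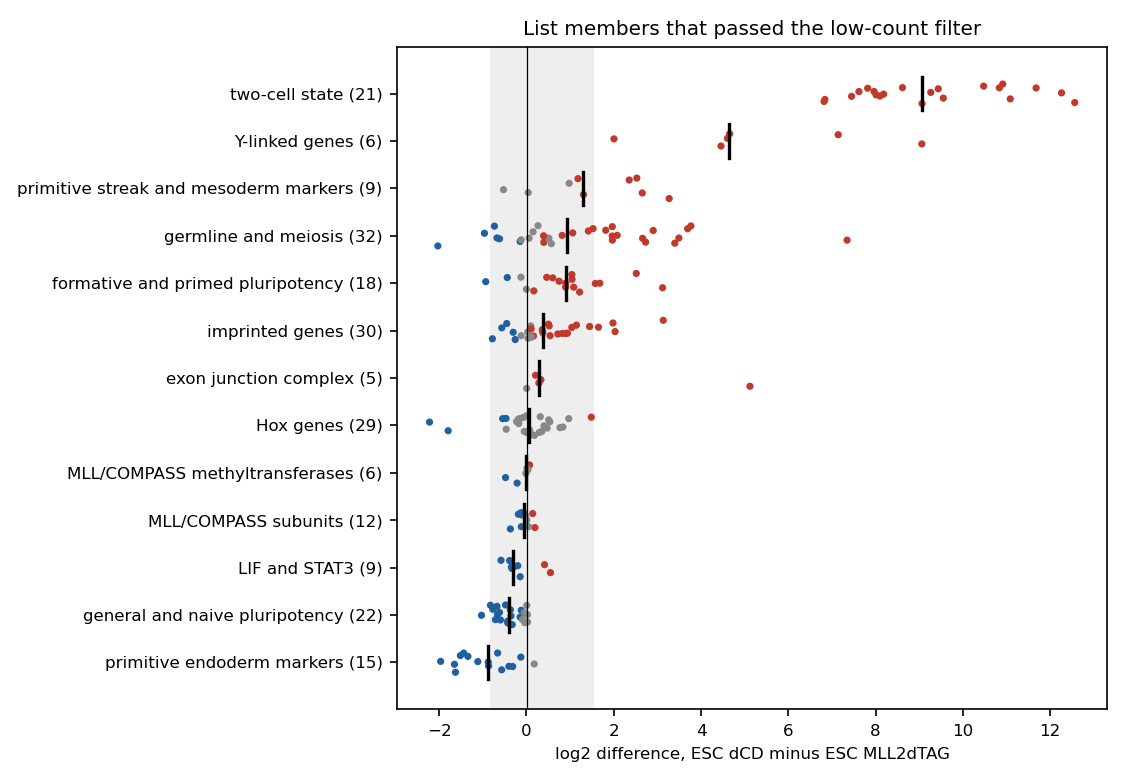
Log2 difference between ESC dCD and ESC MLL2dTAG (horizontal axis) for members of 13 lists that passed the low-count filter, their number in brackets, with red for higher, blue for lower and grey for not called, and a bar at each median. The grey band spans the 5th to 95th percentiles of all genes tested (−0.82 to 1.52), which the 2-cell state genes and Y-linked genes lie above.

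Signalling genes gave mixed counts, to be read against the 28.4% higher and 27.8% lower of all genes. In the nodal, BMP and TGF-beta list, 8 of 19 were higher and 5 lower in dCD. The nodal target and inhibitor Lefty1 was past 2-fold higher (1.61, SE 0.06), and Nodal itself was higher by 0.33 (SE 0.04). Bmp4, a ligand of the BMP branch, was at 44.3 to 46.7 CPM in dCD, 104 to 110 CPM in MLL2dTAG and 22.8 to 24.4 CPM in WT (−1.22, SE 0.04). In the LIF and STAT3 list 7 of 9 were lower in dCD and 2 higher, among them the receptor gene Lifr (−0.58, SE 0.03), Stat3 (−0.30, SE 0.03) and the feedback inhibitor Socs3 (−0.39, SE 0.03), while Pim1 was higher (0.55, SE 0.04). FGF and ERK genes were split 7 to 7 among 17, and WNT genes 12 higher to 5 lower among 19. The 5 lower of 19 in the nodal and WNT lists are near the share of all genes.

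Genes of the H3K4 methylation machinery differed by less than 2-fold. None of the 6 methyltransferase genes of the MLL family and their SET1 relatives, and none of 12 tested subunit genes, was past 2-fold. Kmt2b was at 208, 203 and 198 CPM in dCD and 206, 201 and 214 CPM in MLL2dTAG, overlapping groups with a log2 difference of −0.01 (SE 0.03). Kmt2c was at 203, 205 and 189 CPM in dCD, 275, 286 and 279 CPM in MLL2dTAG and 177 to 219 CPM in WT (−0.48, SE 0.03), and Kmt2d was lower in dCD by 0.21 (SE 0.03). Because a degron removes protein and a catalytic mutation need not alter mRNA, the labels cannot be checked from these levels. Rbbp5, of the core that all these complexes share, was lower by 0.37 (SE 0.03). In the Polycomb repressive complex 2 list, Jarid2 (−0.74, SE 0.02) and Suz12 (−0.54, SE 0.03) were lower in dCD and Ezh2 was slightly higher (0.12, SE 0.03). Of 29 Hox genes tested, 1 was higher and 4 lower, against 28.4% and 27.8% of all genes, and 24 were not called. Past 2-fold lower were 2, against 1.33% of all genes. The whole list summed to only 37.89 to 42.96 CPM in dCD and 46.64 to 48.85 CPM in MLL2dTAG, so many members had few counts to show a difference. Among the lower, Hoxc13 was at 2.24 to 3.02 CPM in dCD against 8.20 to 9.97 CPM in MLL2dTAG (−1.79, SE 0.14).

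Imprinted genes are expressed from 1 parental copy. Of 30, 18 were higher and 5 lower in dCD, against 28.4% and 27.8% of all genes, and 5 were past 2-fold higher, against 4.84%. The median was 0.37. Magel2 (3.13, SE 0.28), Plagl1 (2.03, SE 0.08), Dlk1 (1.98, SE 0.15), Phlda2 (1.65, SE 0.13) and Nnat (1.45, SE 0.05) were the 5. Zdbf2 was lower in dCD (−0.78, SE 0.03), as was Grb10 (−0.56, SE 0.05).

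Magohb, which encodes a core protein of the exon junction complex deposited on spliced mRNA, was nearly absent in MLL2dTAG. It was at 12.8, 11.9 and 12.7 CPM in dCD, 0.366, 0.341 and 0.365 CPM in MLL2dTAG and 9.68 to 15.1 CPM in WT (5.12, SE 0.18). dCD and WT overlapped, and the MLL2dTAG libraries lay far below both. Its paralog Magoh was at 110 to 115 CPM in dCD and 85.6 to 96.1 CPM in MLL2dTAG (0.33, SE 0.04), and the near identity of the pair makes the assignment of reads uncertain. Of the other 3 genes of the list, Eif4a3 (0.29, SE 0.03) and Rbm8a (0.21, SE 0.03) were slightly higher in dCD and Casc3 was not called (0.01, SE 0.03).

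Abundant transcripts were among the genes past 2-fold. Ttll4, which encodes an enzyme that adds glutamate to tubulin, was at 181, 189 and 187 CPM in dCD, 33.7, 36.3 and 35.2 CPM in MLL2dTAG and 170 to 191 CPM in WT (2.42, SE 0.04). Cdc37, a partner of the chaperone HSP90, was at 283 to 289 CPM against 129 to 133 CPM (1.14, SE 0.03). Hook1, a dynein adaptor gene (1.08, SE 0.03), and Myo5a, a myosin motor gene (1.09, SE 0.03), completed the 5 with the largest gap in mean CPM. In each of these 4, WT lay nearer to dCD than to MLL2dTAG.

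Among the genes lower in dCD, Car2 had the largest gap in mean CPM. This carbonic anhydrase gene was at 87.8, 90.5 and 90.0 CPM in dCD, 294, 286 and 286 CPM in MLL2dTAG and 123 to 145 CPM in WT (−1.68, SE 0.03). The septin gene Sept1 was at 102 to 106 CPM against 280 to 288 CPM (−1.42, SE 0.03), with 96.4 to 105 CPM in WT. Epha4, an ephrin receptor gene (−1.72, SE 0.04), and Cobl, an actin nucleator gene (−1.12, SE 0.03), completed the 5 with Lama1.

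By log2 difference, the lowest genes under the same level limit were of mixed function. Islr2, a leucine-rich repeat membrane protein gene, was at 2.52, 1.49 and 2.53 CPM in dCD, 17.1, 13.3 and 14.1 CPM in MLL2dTAG and 3.40 to 3.62 CPM in WT (−2.74, SE 0.14). Pla2g5, a secreted phospholipase gene, was at 3.65 to 4.91 CPM against 25.4 to 25.8 CPM (−2.60, SE 0.09), with a mean of 10.8 CPM in WT (SD 1.21, n = 3). Hydin, needed for motile cilia, was at 8.73 to 10.7 CPM against 47.1 to 49.7 CPM (−2.27, SE 0.07). The secreted ligand gene Mst1 (−2.64, SE 0.16), the cardiac T-box gene Tbx20 (−2.33, SE 0.15), Ushbp1 (−2.29, SE 0.14), the tetraspanin gene Cd37 (−2.18, SE 0.07), the cadherin gene Cdh4 (−2.14, SE 0.11), Samd9l (−2.08, SE 0.16) and the adhesion receptor gene Adgrg6 (4.04-fold lower in mean CPM, SE 0.10 on the log2 scale) followed. With Tuba3a and Aass these made 12.

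Aass, an enzyme gene of lysine breakdown, stood apart by its WT level. It was at 28.1, 23.8 and 31.0 CPM in dCD, 115, 112 and 109 CPM in MLL2dTAG and 117, 109 and 115 CPM in WT, so it was 4.05-fold lower in dCD than in MLL2dTAG (SE 0.05 on the log2 scale) and WT overlapped MLL2dTAG. Dbh, which encodes dopamine beta-hydroxylase and was picked after its values were seen, lay below the level limit of the naming rule. It had no count in dCD, 688 counts in MLL2dTAG, at least a 174-fold difference, and 0.0331 to 0.160 CPM in WT.

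Where WT stood was described for all genes past 2-fold, on log2 of mean CPM + 0.1. Of the 849 genes higher in dCD, WT lay nearer to dCD in 686 (80.8%) and nearer to MLL2dTAG in 163, and of the 233 lower genes it lay nearer to dCD in 178 (76.4%). Over all genes tested the share nearer to dCD was 59.2%. WT lay between the edited lines in 584 of the 849 and 148 of the 233. The median log2 difference of the 849 genes was 0.39 for dCD minus WT and −2.08 for MLL2dTAG minus WT. For the 233 genes the medians were −0.37 and 1.51. The differences from WT share the WT libraries, and the genes were selected on the edited ones, so these values are a description with no test.

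The same contrast was measured in NPC, in libraries that the ESC comparison does not use but from the same lines. There 62% of 18022 genes were called. Of the 849 genes higher in ESC dCD, 666 were tested in NPC, where 524 were called in the same direction and 61 in the opposite one. Of the 233 lower genes, 173 were tested, with 108 called in the same direction and 32 in the opposite. The sign was shared by 85.9% of the former and 69.4% of the latter, against 59.3% of all genes tested in both.

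Ddx4 kept a difference of 3.12 (SE 0.09) in NPC, at 24.3 to 25.5 CPM in dCD against 2.85 to 3.23 CPM in MLL2dTAG. Magohb was at 11.6 to 12.4 CPM against 0 to 0.0522 CPM. Zscan4c had 62 counts in NPC dCD and 0 in NPC MLL2dTAG. Of the genes of the 2-cell state, 8 passed the NPC filter, and as they too were at or near 0 counts in NPC MLL2dTAG, their being higher in dCD is a description. Whether a difference itself changed between stages was tested as an interaction, which called 48.6% of 19856 genes. Islr2, for example, was at 9.41 to 10.7 CPM in NPC dCD and 5.16 to 6.29 CPM in NPC MLL2dTAG, the reverse of its order in ESC.

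**Figure D4:**
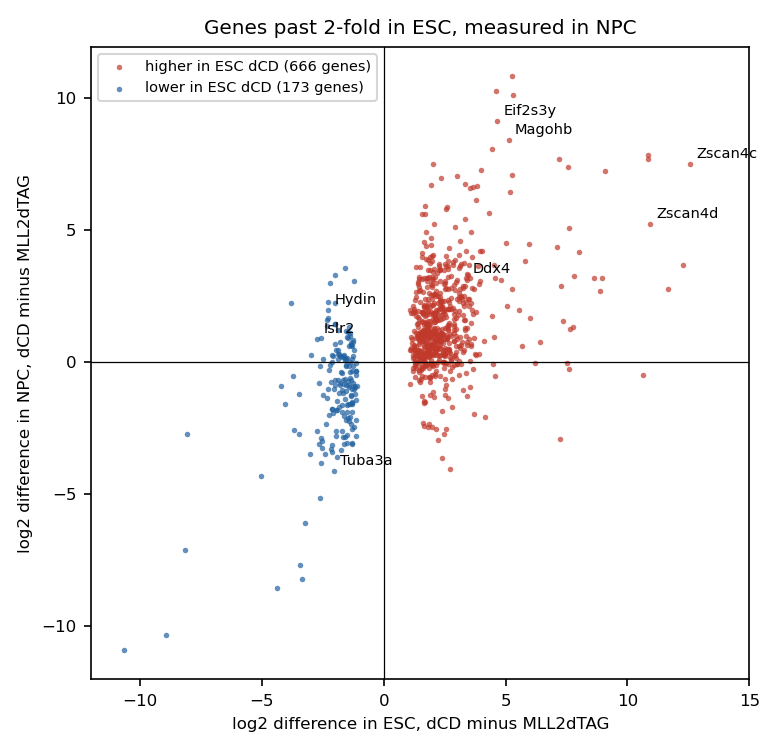
Log2 difference between dCD and MLL2dTAG in NPC (vertical axis) against that in ESC (horizontal axis) for genes past 2-fold in ESC that were tested in NPC, 666 higher (red) and 173 lower (blue) in ESC dCD. Points in the upper right and lower left have the same sign at both stages, 85.9% of the red and 69.4% of the blue points.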

How the data were processed

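Whole-number read counts for each gene symbol were deposited by the authors, not normalized. The submitters' processing notes name HTSeq for these samples, the kit was TruSeq Stranded mRNA per the labels' protocols, and the sources used here do not give the aligner, strand setting or genome build. Column names gave the samples. Another 6 columns with repeated names and the other count table were not analysed here.

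The analysis used edgeR 4.0.16 and limma 3.58.1 under R 4.3.3. Genes were filtered with filterByExpr by group, scaled with TMM factors (0.994 to 1.01) and fitted with 1 mean per group to the 6 libraries (4 residual degrees of freedom). Tests were two-sided quasi-likelihood F tests, and glmTreat against 2-fold, with Benjamini-Hochberg adjustment over all genes, and an adjusted p under 0.05 counted as called. Differences are dCD minus MLL2dTAG on the log2 scale with standard error (SE). Contrasts with WT used 9 libraries, NPC 6 and the interaction 12. CPM were scaled over 18 libraries. The scripts were tested on simulated data.

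Named genes are Kmt2b, Kmt2c and Kmt2d, the 12 highest and 12 lowest log2 differences past 2-fold averaging at least 5 CPM without overlap, the 5 largest CPM gaps in each direction and members of lists. Members and lists were chosen with earlier results of these data known. RefSeq tables (GRCm38.p6) gave promoters and chromosomes, and 89.2% of the genes tested matched by symbol. DESeq2 1.42.0, other scalings, other filters, a replicate block, halved counts and leaving out libraries were alternatives.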

Additional observations from a re-analysis of the deposited data

Results flagged for a closer look

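For 33 of the 37 genes named by rule (the interaction test called 48.6% of all genes), the difference between dCD and MLL2dTAG in NPC departed from that in ESC by the interaction test of edgeR over 12 libraries. Each value in brackets is the NPC difference minus the ESC difference on the log2 scale, as fitted jointly over the 12 libraries. It can depart from a subtraction of the separate ESC and NPC fits, which for Kmt2b gave −0.0148 and −0.14. A negative value means that dCD stood lower against MLL2dTAG in NPC than it did in ESC. Most of these genes were picked for extreme differences in ESC, so their share cannot be compared with that of all genes. The 33 also include genes at or near 0 counts in ESC MLL2dTAG, where a call cannot show that the fold changed.

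The order of the groups was opposite in NPC for Islr2 (3.56), Tbx20 (3.65), Hydin (4.19), Adgrg6 (4.19), Aass (5.26) and Dnmt3b (−1.94). Dnmt3b, the de novo methyltransferase gene, was at 14.0 to 14.7 CPM in NPC dCD and 24.0 to 28.3 CPM in NPC MLL2dTAG, and Adgrg6 was at 18.9 to 19.3 CPM against 3.96 to 4.68 CPM. Among genes of the 2-cell state and others at or near 0 counts in ESC MLL2dTAG, the values were those of Zscan4e (−8.84), Zscan4-ps1 (−8.12), Zscan4f (−9.14), Gm12794 (−8.62), Tmem92 (−8.51), Gm16478 (−6.84), Gm5662 (−8.93), Zscan4d (−5.78) and Gm8300 (−5.85). Since most counts on the MLL2dTAG side were 0, these fitted values depend on the prior count. Their calls do not show that the fold between the lines changed. Of the targeted genes and their relatives, they were Kmt2b (−0.169), Kmt2c (−0.467) and Kmt2d (0.148). The value was positive for Mst1 (1.82), Ushbp1 (1.24), Cd37 (1.4), Cdh4 (2.11), Hook1 (0.851), Sept1 (0.491) and Epha4 (0.608). It was negative for Pla2g5 (−2.61), Tuba3a (−2.14), Cdc37 (−0.226), Ttll4 (−0.791), Myo5a (−0.668), Car2 (−1.19), Lama1 (−0.472) and Cobl (−1.1).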

How the results depend on the processing

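The 1082 calls past 2-fold became 779 with DESeq2, all 779 among the original ones, and 764 with a filter of a mean of 1 CPM, 762 of them shared. With DESeq2 the genes past 2-fold lower in dCD fell from 233 to 145, and the cause was not tested. Other counts stayed within 1.5 times under each alternative run (RLE, upper quartile and library total scalings, no filter, the fit of 18 libraries, halved counts, single libraries left out). Leaving out single libraries gave 1046 to 1091 calls past 2-fold and 9277 to 9538 calls in all. Upper quartile scaling moved the share of higher among called genes most, to 58.4%, and no scaling moved the median of all genes by more than 0.05. Replicate numbers did not pair the samples, with correlations of same-numbered deviations of 0.02, 0.01 and −0.06. A fit with the replicate block gave 1066 calls past 2-fold, 1061 of them shared, and 9688 in all, and changed no other count by more than 1.5 times. Most limits lie in genes with few counts, where a count of 0 allows up to 0.0783 to 0.128 CPM in a single library of these groups. Of 435 list medians recomputed, 368 moved by less than their spread over libraries and 67 by more. Of single genes named, Pou5f1 (0.07) and Sall4 (0.07) became called with upper quartile scaling. No other of 2447 recomputed values changed its call in the ordinary test of a difference, which does not cover the calls past 2-fold. Of these values 20, none called, had another sign than before, all near 0 (at most 0.04 in size) and all of genes not called with TMM scaling, Kmt2b, Uhrf1, Pou5f1, Sall4, Casc3, Setd1a and Setd1b.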

Other observations

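Genes on the X chromosome had a larger share past 2-fold higher in dCD than autosomal genes, and a like share past 2-fold lower. By RefSeq position, 70 of 585 tested X-linked genes (12%) were past 2-fold higher in dCD and 7 (1.2%) lower, with a median log2 difference of 0.12. On autosomes 692 of 15055 genes (4.6%) were past 2-fold higher, with a range of 2.6% to 7.38% over single chromosomes, and 1.33% were past 2-fold lower. These shares are a description, and the germline gene Tex11 is among the X-linked genes.

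In 6 lists on metabolism, stress and cell state, 6 of 104 tested genes (5.77%) were past 2-fold, near the 6.17% of all genes. The counts that follow are to be read against the 28.4% higher and 27.8% lower of all genes. Of 18 cholesterol synthesis genes 3 were higher and 8 lower in dCD. Of 19 genes of glycolysis and hypoxia 10 were higher and 6 lower, Ankrd37 being the 1 past 2-fold at 3.33. Of 15 p53 targets 6 were higher and 6 lower, with no member past 2-fold. In the list of chemokine, interferon and antigen presentation genes 8 of 22 were higher and 7 lower, and the immunoproteasome gene Psmb8 (2.75) and the interferon-induced gene Ifit2 (1.76) were past 2-fold higher. Among 15 epithelial and mesenchymal genes 7 were higher and 4 lower, with the cadherin gene Cdh2 at 1.31 and Cdh1 at 0.55. Of 15 glutathione and metal transport genes 6 were higher and 7 lower, with the glutathione transferase gene Gstm5 past 2-fold higher at 1.97.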
